A study of Cricetiscus sungorus with 16 samples.

Results

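Genes of leukocytes, antigen presentation, complement and inflammation were followed in the ovaries of Siberian hamsters raised in long or short days. The list held 43 mouse RefSeq identifiers, chosen for what the genes are known to do, with earlier results of these data already known. Of these, 41 had a probe on the array and 33 passed the detection filter, out of 33272 identifiers on the array and 20143 that were tested. The deposited files give identifiers without gene symbols, so each symbol used here is the name by which that mouse identifier is generally known. No symbol was checked against a table, and the identifier is printed at first mention.

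The ovary holds resident macrophages and other leukocytes in its stroma, around follicles and in corpora lutea, where they clear dying cells and take part in tissue remodelling. Macrophages engulf debris through Fc and complement receptors and present peptides to T cells on major histocompatibility complex (MHC) class II molecules. Complement is a cascade of plasma and tissue proteins that tags targets for engulfment, with a classical branch started by C1q and an alternative branch amplified by factor B, both meeting at C3.

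The hamsters were gestated and kept under 16 h of light a day (long days, LD) or 10 h (short days, SD), and both ovaries were collected from each female at 3 or 8 wk of age. The labels give no genetic modification and no drug treatment. Each of the 4 groups (LD at 3 wk, LD at 8 wk, SD at 3 wk and SD at 8 wk) had 4 hamsters, with 1 array for each. For the SD group at 8 wk the labels conflict, giving 16 h beside the letters SD in some fields and 10 h in another, and these hamsters were taken as SD. The study asked how the photoperiods differ at each age and how each changes between the ages.

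The probes are of mouse sequence and the RNA was of hamster, and how well each probe reports its hamster counterpart was not tested. The 16 arrays lay on 4 slides, each slide with 1 array of every group, and each group kept 1 position on all slides, so position and group cannot be told apart. The array is named below by its slide number. The 75th percentile of intensity ranged from 282 to 1055 over the arrays and 58.0% to 75.7% of probes were well above background. Slide 1 had 775 to 1278 spots flagged as outliers an array, against 64 to 207 on the other slides. Levels are log2 intensity relative to the array's 75th percentile, so 0 is that percentile and 1 unit is a doubling, and levels of different probes cannot be compared with each other. Markers of ovarian cell types could not be matched to identifiers, so the tissue label was not checked.

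Between 3 and 8 wk in LD, 7 of the 33 genes tested rose and 0 fell, which is 21.2% of the genes, while 2.99% of all identifiers tested changed, 1.25% upward and 1.75% downward. Those that rose were the macrophage and leukocyte markers Cd68 and Cd53, the Fc receptor Fcgr2b, the MHC class II chains H2-Aa and H2-Ab1, and the complement genes C1qa and Cfb. The differences ran from 1.48 to 2.02 on the log2 scale, or 2.78-fold to 4.07-fold. In SD, 4 genes rose and 0 fell (12.1%), while 9.08% of all identifiers changed, 4.90% upward and 4.18% downward. These were Cfb, Cd68, H2-Ab1 and H2-Aa, all 4 of which also rose in LD. The 2 age comparisons share no arrays, but they share the 4 slides and the estimate of each gene's spread. In whole ovaries, more cells of a type and more RNA per cell cannot be told apart.

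**Figure D1:**
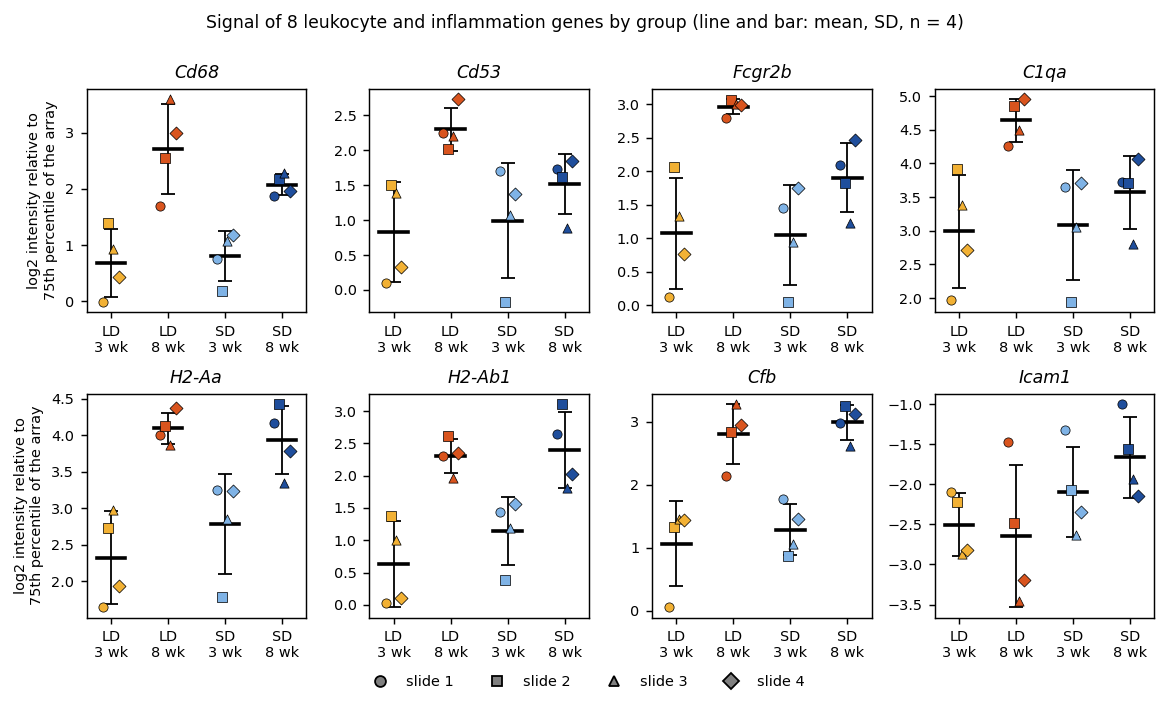
Level of 8 genes on each array (log2 intensity relative to the array's 75th percentile, vertical axis) by group, with the group mean and SD (line and bar, n = 4) and a symbol for each slide. All arrays at 8 wk lie above all arrays at 3 wk for Cd68, H2-Aa, H2-Ab1 and Cfb in both photoperiods, and for Cd53, Fcgr2b and C1qa in LD, while the Icam1 groups overlap in every comparison.

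Cd68 (NM_009853) encodes a lysosomal glycoprotein of macrophages. On slides 1 to 4 its level was -0.01, 1.39, 0.93 and 0.44 in LD at 3 wk and 1.70, 2.54, 3.60 and 3.00 in LD at 8 wk. Every array at 8 wk was above every array at 3 wk. The rise was 2.02 (SE 0.36), or 4.07-fold, with an adjusted p of 0.0063 in limma, and it was positive on 4 of 4 slides. In SD, Cd68 was 0.76, 0.19, 1.08 and 1.18 at 3 wk and 1.87, 2.17, 2.28 and 1.96 at 8 wk, again without overlap. That rise was 1.27 (SE 0.36), or 2.41-fold, with an adjusted p of 0.0339 in limma.

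Cd53 (NM_007651), a tetraspanin on the surface of leukocytes, was 0.10, 1.497, 1.38 and 0.33 in LD at 3 wk and 2.25, 2.02, 2.20 and 2.74 in LD at 8 wk. The LD groups did not overlap, with the arrays of slides 1 and 4 lowest at 3 wk. The rise of 1.48 (SE 0.38) lay just inside the threshold, with an adjusted p of 0.0486 in limma, and it no longer passed in 22 of 35 other settings. In SD, Cd53 was 1.71, -0.18, 1.07 and 1.37 at 3 wk and 1.73, 1.62, 0.88 and 1.85 at 8 wk, and the groups overlapped. The SD difference of 0.53 (SE 0.38) did not pass, with an adjusted p of 0.531 in limma.

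Cd14 (NM_009841), a co-receptor for bacterial lipopolysaccharide, was -1.47, -0.76, -1.09 and -0.60 in SD at 3 wk and -0.84, -0.04, -0.56 and 0.01 in SD at 8 wk. The groups overlapped, but on each slide the hamster at 8 wk was higher, by 0.53 to 0.72. The difference of 0.62 (SE 0.24) had an adjusted p of 0.138 in limma, and 0.00278 with slide as a block, a fit in which each slide has its own mean. In LD the difference was 0.28 (SE 0.24).

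The other 9 macrophage and leukocyte markers tested did not pass in either age comparison. Ptprc (NM_011210), the pan-leukocyte phosphatase CD45, was -2.29, -0.89, -1.28 and -1.98 in LD at 3 wk and -0.53, -0.60, -1.0 and -0.30 in LD at 8 wk. Only the array of slide 2 at 3 wk reached into the range at 8 wk, and the difference was 1.003 (SE 0.38, adjusted p of 0.216 in limma). In SD it was 0.13 (SE 0.38). Coro1a (NM_009898), an actin regulator of leukocytes, differed by 0.82 (SE 0.33) in LD and 0.14 (SE 0.33) in SD. The macrophage mannose receptor Mrc1 (NM_008625) differed by 0.70 (SE 0.42) in LD and -0.11 (SE 0.42) in SD. Lyz2 (NM_017372), a lysozyme of myeloid cells, differed by 0.88 (SE 0.44) in LD, with 1 array at 3 wk left out as an outlier spot, and by 0.52 (SE 0.40) in SD.

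Lcp1 (NM_008879), an actin-bundling protein, Itgb2 (NM_008404), the shared beta chain of leukocyte integrins, and Ctss (NM_021281), a protease of antigen processing, differed by 0.37, 0.04 and 0.36 in LD and by 0.10, 0.18 and -0.26 in SD. Laptm5 (NM_010686), a lysosomal protein of blood cells, differed by -0.23 in LD and 0.15 in SD. Adgre1 (NM_010130), the macrophage antigen F4/80, differed by -0.35 in LD and 0.30 in SD, and was well above background on 12 of 16 arrays. The probes of Adgre1 disagreed, since its dimmer probe differed by 1.12 in LD and 0.06 in SD. That probe was well above background on 10 of 16 arrays. The dimmer probe of Lcp1 differed by 0.79 in LD and 0.0049 in SD. Of the 12 markers tested in this class, 10 were higher at 8 wk in each photoperiod, but without the block 2 passed in LD and 1 in SD. Of all identifiers tested, 44.3% were higher at 8 wk in LD and 51.4% in SD.

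Fcgr2b (NM_010187) encodes the inhibitory receptor for immunoglobulin G. In LD it was 0.12, 2.07, 1.34 and 0.76 at 3 wk and 2.79, 3.06, 3.00 and 2.99 at 8 wk. The arrays at 8 wk lay close together (SD 0.12) and above all arrays at 3 wk (SD 0.83). The rise was 1.89 (SE 0.39), or 3.71-fold, with an adjusted p of 0.0155 in limma. Its 2 other probes were also higher at 8 wk in LD, by 0.67 and 1.503. In SD, Fcgr2b was 1.45, 0.05, 0.94 and 1.75 at 3 wk and 2.09, 1.83, 1.23 and 2.46 at 8 wk, and the groups overlapped, with a difference of 0.86 (SE 0.39, adjusted p of 0.226 in limma). That difference was positive on 4 of 4 slides.

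Tyrobp (NM_011662), the adaptor DAP12 that relays signals from myeloid and natural killer receptors, was -2.54, 0.23, -0.35 and -0.96 in LD at 3 wk and -0.07, 1.17, 0.47 and 1.53 in LD at 8 wk. The array of slide 2 at 3 wk overlapped the lowest at 8 wk. The difference was 1.68 (SE 0.51), with an adjusted p of 0.0973 in limma and 0.0267 with slide as a block, and it also passed without the LD array of slide 2 at 3 wk. In SD it was 0.28 (SE 0.51). Fcgr3 (NM_010188), an activating immunoglobulin G receptor, differed by 0.29 in LD and 0.15 in SD, and was well above background on 12 of 16 arrays. Fcer1g (NM_010185), the signalling chain such receptors share, differed by -0.07 in LD and 0.18 in SD.

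The MHC class II genes H2-Aa (NM_010378) and H2-Ab1 (NM_207105), the alpha and beta chains of a peptide-presenting molecule, rose in both photoperiods. H2-Aa was 1.64, 2.74, 2.98 and 1.94 in LD at 3 wk and 4.01, 4.13, 3.87 and 4.38 in LD at 8 wk. In SD it was 3.24, 1.79, 2.85 and 3.23 at 3 wk and 4.16, 4.43, 3.35 and 3.79 at 8 wk. The ages did not overlap in either photoperiod, though in SD the highest array at 3 wk lay close below the lowest at 8 wk. The rises of H2-Aa were 1.77 (SE 0.34) in LD and 1.15 (SE 0.34) in SD, with adjusted p of 0.0111 and 0.0451 in limma. The SD rise of H2-Aa no longer passed in 22 of 35 other settings.

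For H2-Ab1 the level was 0.03, 1.38, 1.001 and 0.10 in LD at 3 wk and 2.30, 2.62, 1.97 and 2.35 in LD at 8 wk. In SD it was 1.44, 0.39, 1.19 and 1.56 at 3 wk and 2.65, 3.11, 1.82 and 2.03 at 8 wk. The ages did not overlap in either photoperiod. The rises of H2-Ab1 were 1.68 (SE 0.34) in LD and 1.26 (SE 0.34) in SD, with adjusted p of 0.0146 and 0.0291 in limma. The SD rise of H2-Ab1 no longer passed in 10 of 35 other settings. The other probes of both chains were higher at 8 wk as well, by 0.85 to 1.88 in LD and 0.44 to 1.27 in SD. When a gene's probes were averaged, however, neither chain passed in SD.

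Cd74 (NM_010545), the invariant chain that escorts class II molecules through the cell, did not pass in either photoperiod. Its level was -2.93, -2.34, -2.27 and -2.36 in LD at 3 wk and -3.07, -2.25, -2.40 and -2.26 in LD at 8 wk. In both LD groups the array of slide 1 was lowest and the other arrays lay together. The difference was -0.02 in LD (95% interval -0.47 to 0.44) and 0.13 in SD (-0.33 to 0.58).

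Among complement genes, Cfb (NM_008198), factor B of the alternative branch, rose in both photoperiods. It was 0.05, 1.32, 1.45 and 1.44 in LD at 3 wk and 2.14, 2.84, 3.28 and 2.94 in LD at 8 wk. In SD it was 1.77, 0.87, 1.06 and 1.45 at 3 wk and 2.98, 3.25, 2.61 and 3.13 at 8 wk. No array at 3 wk reached the range at 8 wk. The rises were 1.74 (SE 0.31) in LD and 1.71 (SE 0.31) in SD, or 3.33-fold and 3.27-fold, with adjusted p of 0.00683 and 0.00246 in limma. The difference between them was -0.03, with a 95% interval from -0.96 to 0.90.

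C1qa (NM_007572) and C1qb (NM_009777) encode chains of C1q. C1qa was 1.97, 3.92, 3.38 and 2.71 in LD at 3 wk and 4.26, 4.85, 4.49 and 4.95 in LD at 8 wk, without overlap. Its rise was 1.64 (SE 0.42) with an adjusted p of 0.0447 in limma, and it no longer passed in 20 of 35 other settings. In SD, C1qa was 3.64, 1.94, 3.06 and 3.70 at 3 wk and 3.72, 3.71, 2.80 and 4.06 at 8 wk, an overlapping difference of 0.49 (SE 0.42).

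C1qb was 0.71, 2.67, 2.14 and 1.77 in LD at 3 wk and 1.95, 3.45, 3.05 and 3.63 in LD at 8 wk. The groups overlapped, yet the hamster at 8 wk was higher on 4 of 4 slides. The difference of 1.196 (SE 0.43) had an adjusted p of 0.191 in limma and 0.0235 with slide as a block. C3 (NM_009778), where the branches meet, differed by 0.08 in LD and -0.14 in SD.

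The T-cell markers Cd3e (NM_007648), a chain of the T-cell receptor complex, and Cd4 (NM_013488), the helper T-cell co-receptor, did not pass in either age comparison, with or without the slide block. They differed by 0.05 and 0.03 in LD and by 0.32 and 0.17 in SD. The 95% interval of Cd3e in LD ran from -0.40 to 0.51. Over all 16 arrays the level of Cd4 spanned 0.48.

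**Figure D2:**
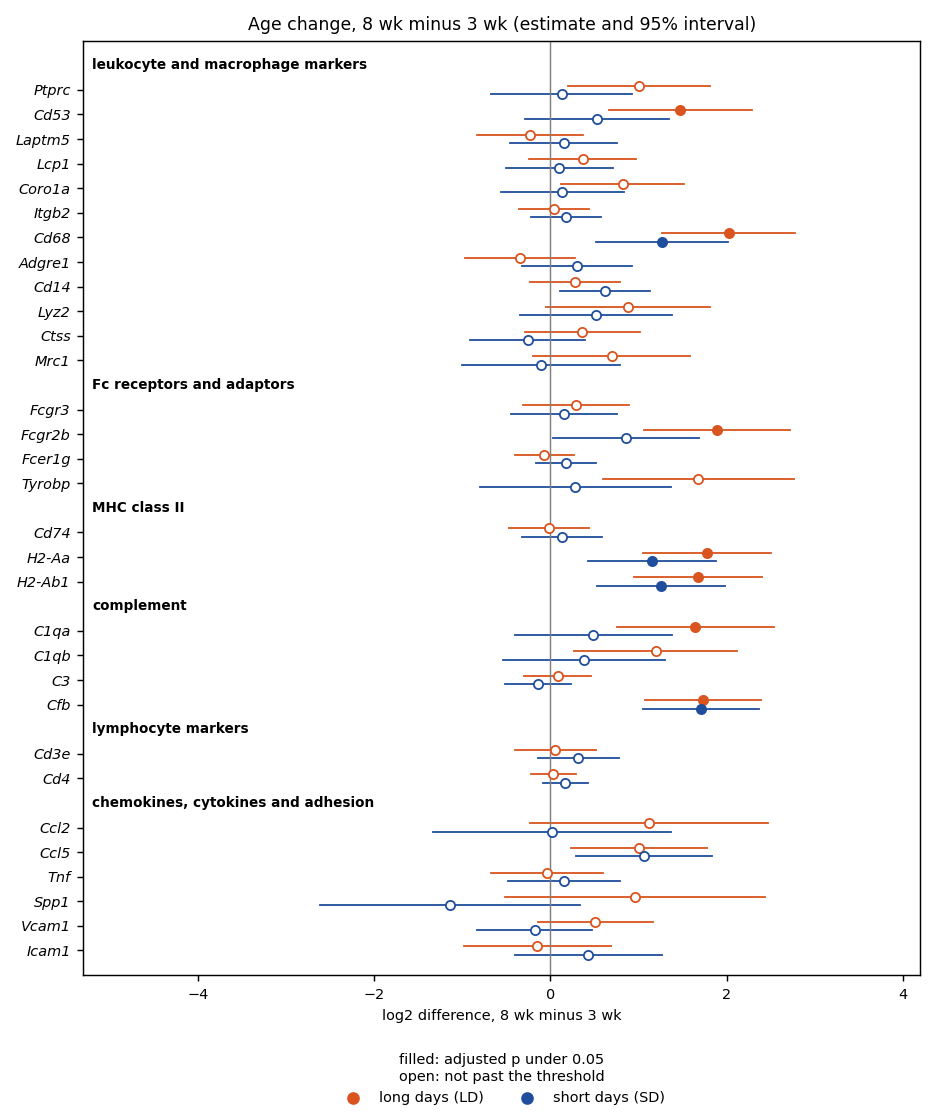
Age change of genes tested (log2 difference, 8 wk minus 3 wk, horizontal axis) in LD and SD, with 95% intervals, by class. Filled points passed the adjusted p threshold of 0.05 (7 in LD and 4 in SD), and the filled points all lie to the right of 0.

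Chemokines, cytokines and adhesion molecules gave no call in either age comparison when all 16 arrays were fitted without the slide block and without outlier spots. Ccl5 (NM_013653), a chemokine for T cells and monocytes, was -3.26, -3.42, -3.21 and -3.58 in LD at 3 wk and -2.25, -2.09, -2.11 and -2.99 in LD at 8 wk. In SD it was -1.92, -3.31, -3.09 and -3.89 at 3 wk and -1.67, -1.28, -2.39 and -2.62 at 8 wk. The LD ages did not overlap, and in SD the array of slide 1 at 3 wk lay within the range at 8 wk. The differences of Ccl5 were 1.005 (SE 0.36) and 1.06 (SE 0.36), with adjusted p of 0.189 and 0.087 in limma, and 0.0307 and 0.0129 with slide as a block. Without the block, Ccl5 also passed in SD in 3 other settings, with outlier spots kept, without slide 1 and without the SD array of slide 1 at 3 wk.

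Vcam1 (NM_011693), an endothelial adhesion molecule that binds leukocytes, was 0.33, -0.07, -0.67 and -0.95 in LD at 3 wk and 0.75, 0.27, -0.17 and -0.17 in LD at 8 wk. The groups overlapped, and in each the array of slide 1 was highest. The difference of 0.51 (SE 0.31) had an adjusted p of 0.559 in limma and 0.0485 with slide as a block, and in SD it was -0.18. Its other probe differed by 0.44 in LD and by 0.12 in SD, so the probes disagreed in direction in SD.

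Ccl2 (NM_011333), a chemokine for monocytes, differed by 1.12 (SE 0.64) in LD and 0.02 (SE 0.64) in SD, where the array of slide 1 at 8 wk stood at 2.01 and the other 3 between -1.82 and -0.68. Spp1 (NM_009263), the secreted phosphoprotein osteopontin, differed by 0.97 (SE 0.70) in LD and -1.14 (SE 0.70) in SD. It had the widest range of the genes tested, 5.13 over the 16 arrays. The lowest value, -5.38 on the LD array of slide 1 at 3 wk, was not well above background. Tnf (NM_013693), an inflammatory cytokine, differed by -0.04 in LD and 0.16 in SD, and Icam1 (NM_010493), a ligand of leukocyte integrins, by -0.15 and 0.43.

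Over the 33 genes, the median age difference was 0.51 in LD and 0.18 in SD, beside medians of -0.04 and 0.01 over all identifiers tested. At 8 wk 26 genes were higher in LD and 27 in SD, or 78.8% and 81.8%, beside 44.3% and 51.4% of all identifiers. In 8 genes all LD arrays at 8 wk lay above all at 3 wk (3.55% of all identifiers did), and in SD this held for 5 genes (8.40%). With slide as a block, 11 genes rose in LD (of all identifiers 11.5% changed, 4.03% upward and 7.48% downward) and 6 in SD (23.0% changed, 11.3% upward and 11.7% downward), and 0 fell in either.

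The counts depended on single arrays. Without the LD array of slide 4 at 3 wk, 3 genes rose in LD, and without the SD array of slide 2 at 3 wk, 1 gene, Cfb, rose in SD. Without the SD array of slide 1 or of slide 2 at 8 wk 1 gene rose in SD, and without that of slide 3 at 3 wk or slide 4 at 8 wk 2 did. The share of all identifiers that passed in these smaller fits is not given here, so the drops cannot be read as particular to these genes. Normexp background correction as planned gave 0 calls in both, beside 0% of all identifiers in LD and 0.0745% in SD, but its fit failed on 5 arrays. The 2 repaired versions chosen after that gave 6 calls in LD and 2 in SD each. In the version without local background, 2.23% of all identifiers changed in LD and 7.17% in SD. That share in the other version is not given here.

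**Figure D3:**
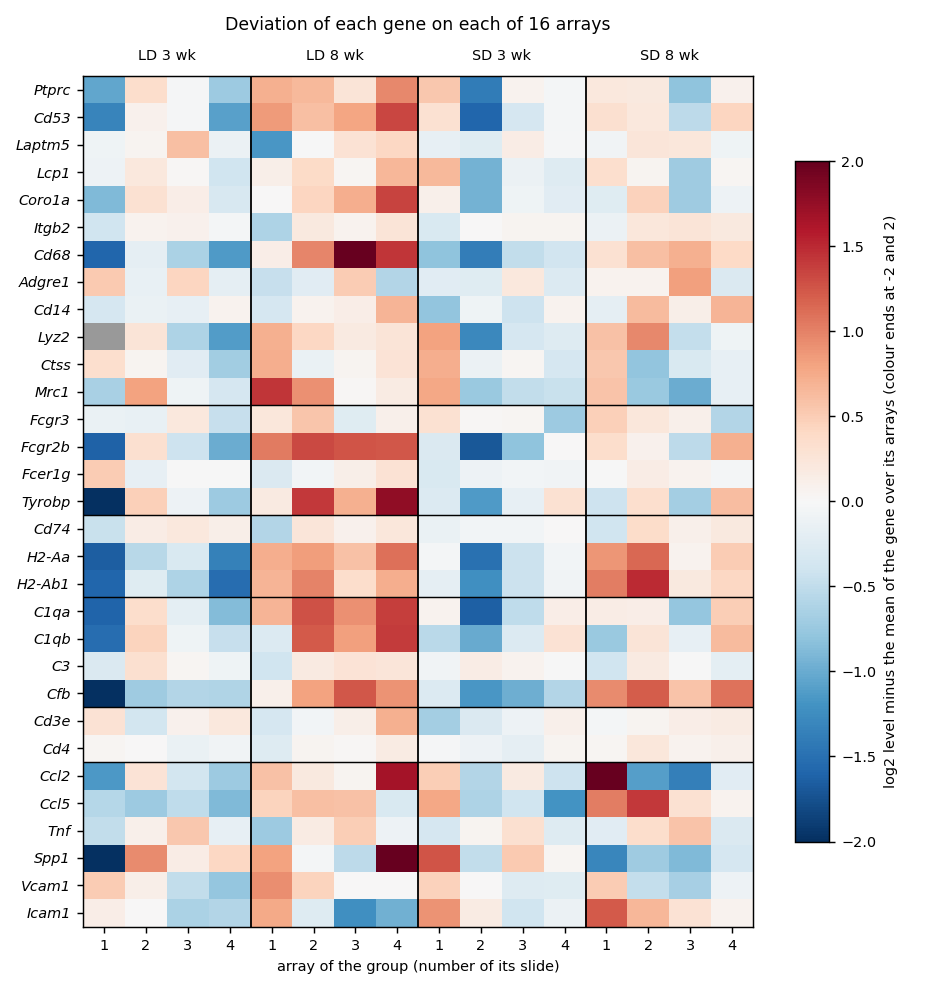
Level of genes tested on each of the 16 arrays, as the difference from the gene's mean over its arrays (log2, colour scale ending at -2 and 2; the grey cell is a spot left out). Columns are arrays by group and slide, and rows are genes by class; the LD array of slide 1 and the SD array of slide 2 at 3 wk are dark blue across many macrophage, class II and complement genes.

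Arrays of a group differed from each other in many of these genes at once. Among LD arrays at 3 wk, that of slide 1 was lowest for 19 of the 32 genes measured on all 4, beside 19.4% of all identifiers. Among SD arrays at 3 wk, that of slide 2 was lowest for 17 of 33 genes, beside 29.1%. Among LD arrays at 8 wk, that of slide 4 was highest for 16 of 33 genes, beside 19.7%. The median LD age difference of the genes was 0.71, 0.18, 0.28 and 0.78 on slides 1 to 4, and that in SD was 0.08, 0.49, 0.11 and 0.17. All 8 medians were above 0, with the largest LD values on slides 1 and 4 and the largest SD value on slide 2. What set these arrays apart was not tested.

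Short and long days at 8 wk were compared next. In limma 0 of the 33 genes passed, while 0.968% of all identifiers did, 0.750% higher and 0.218% lower in SD. At an unadjusted p under 0.05 there were 6 genes, 1 higher and 5 lower in SD, beside 6.9% of all identifiers. With slide as a block there were 12 at that unadjusted p, 1 higher and 11 lower in SD, beside 14% of all identifiers. After adjustment 1 gene passed with the block, Icam1, beside 2.65% of all identifiers (1.87% higher and 0.779% lower). The median difference, SD minus LD, was -0.16, and by slide it was 0.16, 0.02, -0.36 and -0.44, so the slides did not share a direction.

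Icam1 was -1.47, -2.49, -3.45 and -3.19 in LD at 8 wk and -0.999, -1.56, -1.94 and -2.15 in SD at 8 wk. The groups overlapped, but on every slide the SD hamster was higher, by 0.47 to 1.51. The difference was 0.99 (SE 0.39), or 1.98-fold, with an adjusted p of 0.508 in limma and 0.00643 with slide as a block. At 3 wk the difference between photoperiods was 0.41 (SE 0.39), also positive on 4 of 4 slides.

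In 4 genes every SD array at 8 wk lay below every LD array, which 1.86% of all identifiers did. These were Fcgr2b, C1qa, Cd53 and Ptprc, with differences of -1.06 (SE 0.39), -1.06 (SE 0.42), -0.78 (SE 0.38) and -0.72 (SE 0.38). Their adjusted p in limma were 0.414, 0.498, 0.776 and 0.856, so none passed. Spp1 differed by -1.52 (SE 0.70), Mrc1 by -0.97 (SE 0.42) and Coro1a by -0.78 (SE 0.33), at adjusted p of 0.678, 0.613 and 0.575 in limma. The 2 class II chains and Cfb did not pass at 8 wk either. Their differences were -0.16 for H2-Aa (95% interval -0.89 to 0.56), 0.10 for H2-Ab1 (-0.63 to 0.82) and 0.19 for Cfb (-0.47 to 0.85). All these intervals span 0, and whether these genes differ from those above was not tested.

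**Figure D4:**
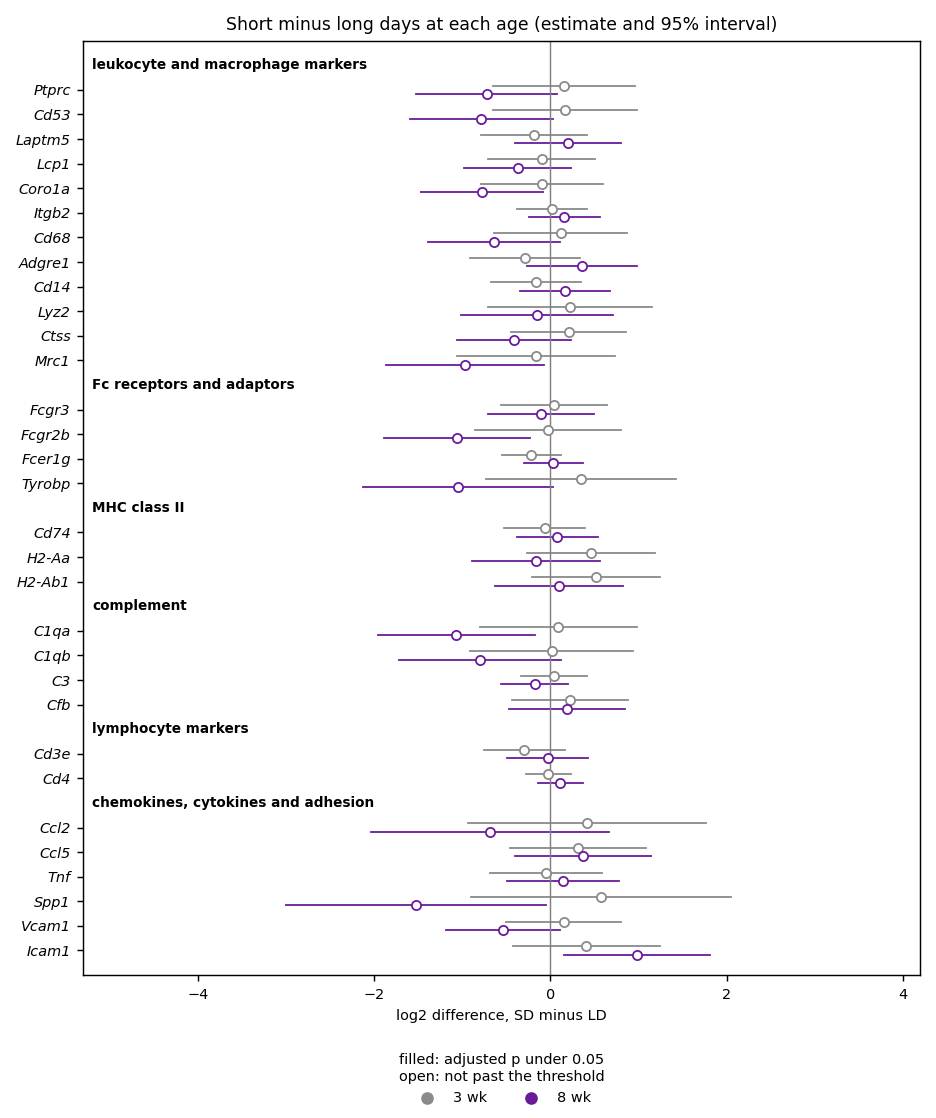
Difference between photoperiods of genes tested (log2, SD minus LD, horizontal axis) at 3 wk and 8 wk, with 95% intervals, by class. No point is filled, since 0 genes passed at either age, and the points at 8 wk run from -1.52 for Spp1 to 0.99 for Icam1.

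At 3 wk 0 of the 33 genes passed between the photoperiods in limma, with or without slide as a block, and 0 of all identifiers did. At an unadjusted p under 0.05 there were 0 genes without the block and 1 with it, beside 1.58% and 6.12% of all identifiers. Differences ran from -0.29 to 0.58, with a median of 0.04. In 24 of the 33 genes the 95% interval lay within a 2-fold difference either way, as it did in 84.9% of all identifiers. In the rest of the 33 a 2-fold difference could not be resolved with this number of arrays.

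The age change itself was compared between photoperiods, since a gene that passed in LD and not in SD need not differ between them. In limma 0 of the 33 genes passed this test, beside 0.0645% of all identifiers (0.169% with slide as a block, where 0 genes passed as well), and 1 gene, Spp1, had an unadjusted p under 0.05, as did 3.05% of all identifiers. With the block 5 genes had an unadjusted p under 0.05, 2 with a positive and 3 with a negative difference, as did 8.51% of all identifiers. Among these Vcam1 differed by -0.69, with an adjusted p of 0.365 in limma with the block. The other probe of Vcam1 was higher at 8 wk in both photoperiods, by 0.44 in LD and 0.12 in SD. The Spp1 difference was -2.10 (SE 0.98), and it was -5.85, 0.77, -0.73 and -2.60 on slides 1 to 4. The value on slide 1 rests on an LD array at 3 wk where Spp1, at -5.38, was not well above background. Fcgr2b, C1qa and Cd53 passed the threshold in LD alone, though their SD differences were positive too. For them the difference of the age changes was -1.04 (SE 0.55), -1.16 (SE 0.59) and -0.95 (SE 0.54). Each of these was negative on 3 slides and positive on slide 2. Slide 2 holds the SD array at 3 wk that was lowest for 17 of 33 genes. Among the slides with negative values, slide 1 holds the LD array at 3 wk that was lowest for 19 of 32 genes. Slide 4 holds the LD array at 8 wk that was highest for 16 of 33. What these arrays did to the difference was not tested. The median over the genes by slide was -0.56, 0.51, -0.39 and -0.58, so slide 2 ran against the others.

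The remaining 10 listed genes gave no test. H2-Eb1 (NM_010382), another class II beta chain, and Cd8a (NM_009857), the cytotoxic T-cell co-receptor, had no probe under their identifier. Below the detection filter were Cd52 (NM_013706), Itgam (NM_008401), Cd163 (NM_053094), C1qc (NM_007574), Cd79b (NM_008339), Cxcl10 (NM_021274), Cxcl12 (NM_021704) and Il1b (NM_008361). Itgam, Cxcl10 and Cxcl12 were well above background on 0 of 16 arrays, Cd163 on 2, Cd52 on 3, C1qc and Cd79b on 10 each and Il1b on 11. A dim mouse probe on hamster RNA says nothing of the level of the hamster transcript. Of the 33 tested, 28 were well above background on all 16 arrays, and these include all genes that passed in any comparison.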

How the data were processed

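Total RNA of both ovaries of each hamster was labelled with Cy3 and hybridised to 1-colour mouse arrays, per the labels' protocols. Per the file headers, the authors extracted spots with Agilent Feature Extraction 10.5.1.1, and the deposited processed intensity of each spot is linear, background-corrected and not normalized between arrays. The deposited flags that mark outliers, and those that mark spots as well above background, were used as given. The authors' deposited value table matched the processed intensity within 0.5% in all but 4 cells.

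Levels were log2 of the processed intensity minus the array's 75th percentile over non-control spots, after removal of outlier spots and averaging of a probe's repeated spots. The filter required the flag for signal well above background on every array of 1 or more groups, and a measurement on 12 or more arrays, with 2 or more in any group or slide. Each identifier was represented by its brightest probe. No spot was saturated. Limma 3.58.1 in R 4.3.3 (lmFit, eBayes with trend) was fitted over 16 arrays and 20143 identifiers. Benjamini-Hochberg adjustment was made over all identifiers tested, with a threshold of 0.05. The fit was also run on simulated data whose arrays varied independently, so that run does not cover deviations shared within a slide. The number of arrays limits the precision.

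The labels give each sample an animal code and no replicate number, so arrays were numbered by slide. Arrays of a slide deviated from their group means together (median correlation 0.450, lowest 0.228), and the fit with slide as a block is given where it changes a call. The members, lists and alternatives were chosen with earlier results of these data known, and symbols were assigned from general knowledge of the identifiers. Every listed gene is accounted for except 2 that are not reported here by name, and those past the threshold in a fit with or without the block are given array by array. A wider list of pathway genes and lists of cell type markers were not used here, since they could not be matched to identifiers.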

Additional observations from a re-analysis of the deposited data

Results flagged for a closer look

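Among 131 groups of 4 arrays, 7 held an array that stood apart from the other 3 by Dixon's criterion, beside 6.55 expected, since chance marks about 1 in 20 groups. In 5 of the 7 it was the array of slide 1: Cfb at 0.052 and Cd74 at -2.93 in LD at 3 wk, C3 at -1.22 in LD at 8 wk, and Itgb2 at -0.73 in SD at 3 wk and -0.55 in SD at 8 wk, each the lowest of its group. On slide 3, Ptprc was low at -2.05 in SD at 8 wk, and Adgre1 was high at -4.66 in SD at 3 wk. Of these values only that of Cfb enters a call, and without that array Cfb still rose in LD, by 1.40 with an adjusted p of 0.0144 in limma.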

How the results depend on the processing

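Over 35 other settings the count of genes that rose ran from 0 to 11 in LD and from 0 to 6 in SD, and no difference of a called gene changed sign. Leaving out 1 array gave 3 to 8 calls in LD and 1 to 4 in SD. The share of all identifiers in the fits that leave out arrays is not given here. Without the SD array of slide 3 or of slide 4 (at 3 and 8 wk respectively) 2 genes rose in SD, and without that of slide 1 or of slide 2 at 8 wk 1 did. Normexp background correction, as planned, gave 0 in both, beside 0% of all identifiers in LD and 0.0745% in SD. Its fit failed on 5 arrays, where the median after correction was 466 to 4696 against at most 135 before. A maximum likelihood fit, or leaving out flagged spots alone, failed on the same number of arrays. Leaving out 66 spots at or below -20 after local background, or using no local background, did not fail. Both repairs were chosen after seeing the failure and gave 6 in LD and 2 in SD; the first with slide as a block gave 10, 6 and, between photoperiods at 8 wk, 1. Slide as a block alone gave 11, 6 and 1. Fitting only the groups compared gave 4 in LD, and averaging a gene's probes gave 2 in SD. The share of all identifiers in these settings, and in the first repair with or without the block, is not given here. These counts therefore cannot be read as particular to these genes. Without slide 1 there were 4 in LD, without slide 2 there were 0 in SD, without slide 3 there were 0 in LD and 1 in SD, and without slide 4 there were 0 in LD and 1 in SD. Those fits hold fewer arrays, and the cause of the other changes was not tested. The settings that leave out slides 2 to 4, and the percentile over probes (6 in LD, where Cd53 had an adjusted p of 0.05 in limma), were also added after seeing the data. The share of all identifiers with that percentile is not given here. Photoperiod at 3 wk and the difference of the age changes gave 0 calls in every setting. Cfb in SD kept its call in 33 of 35 settings, Cd68 in LD in 31 and H2-Aa in SD in 13. The labels give no replicate numbers, so hamsters were paired by slide alone, in the fits with slide as a block.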
